A study of Mus musculus with 6 samples.

Results

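Translation initiation and elongation factors were examined in B cells of the germinal center (GC) and in naive B cells, all from Peyer's patches of mice. Members were chosen by gene symbol, as protein-coding genes whose symbol is Eif or Eef followed by a digit. Pseudogenes, the Eif2ak kinases and Eif4ebp1 were left out. This rule found 61 of the 39179 gene identifiers measured. Of the 61 members, 4 (Eif2c1 to Eif2c4) carry older symbols of the Argonaute genes, which act in RNA silencing and are not translation factors, so they were counted apart and 57 factors remained.

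RNA-Seq was analyzed for 3 pools of GC B cells and 3 pools of naive B cells, each pool composed of 5 female C57BL/6 WT mice of 12 wk. GC B cells were sorted as Fas+GL7+ and naive (resting) B cells as Fas-GL7- B cells from ileal Peyer's patches, with no treatment in either population. Levels are given as TPM, a measure of transcript number corrected for length and scaled so that each pool sums to 1000000. The comparison addressed how transcript levels differ between the cells of the GC reaction and the resting cells of the same tissue.

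Initiation factors bring the initiator tRNA, the small ribosomal subunit and the capped mRNA together and find the start codon. eIF2 carries the initiator tRNA, eIF2B recharges eIF2 with GTP, eIF3 bridges the small subunit and the mRNA, and eIF4F binds the cap and unwinds the mRNA leader. Elongation factors then deliver each aminoacyl tRNA (eEF1A), reload eEF1A with GTP (eEF1B) and move the ribosome along the mRNA (eEF2). In B cells, antigen drives resting cells with little protein synthesis into a phase of growth and rapid division in the GC.

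The sorted labels were checked against marker genes. Of the GC markers, Bcl6 was at 242 to 258 TPM in GC pools and 46.9 to 51.6 TPM in naive pools, and the proliferation gene Mki67 was at 227 to 229 TPM and 0.70 to 0.91 TPM, respectively. Of the naive markers, Ccr7 was at 0.63 to 1.25 TPM in GC pools and 78.8 to 95.6 TPM in naive pools, and Cd38 was at 5.08 to 6.48 TPM and 218 to 223 TPM. The B cell genes Cd79a and Ms4a1 were abundant in every pool, with at least 1057 and 708 TPM. T cell markers summed to at most 3.51 TPM in any pool. Myeloid markers were low but did not overlap, with 1.16 to 2.80 TPM in GC pools and 4.17 to 7.84 TPM in naive pools. The 5 markers of intestinal epithelium (Krt8, Epcam, Vil1, Lgals4 and Fabp2) moved with the populations, with 53.2 to 123 TPM in GC pools and 167 to 197 TPM in naive pools. Plasma cell genes summed to 131 to 135 TPM and 192 to 212 TPM, a sum carried by Xbp1 and Irf4. Prdm1 was at 4.69 to 5.22 TPM in GC pools and 0.86 to 1.07 TPM in naive pools. Sdc1 went the other way, with 0.93 to 1.95 TPM in GC pools and 2.62 to 3.66 TPM in naive pools. The 4 stromal markers summed to 22.0 to 24.5 TPM and 121 to 132 TPM, nearly all of it Pecam1, a gene of endothelial and other cells, with Col1a1, Col1a2 and Pdgfrb at or near 0 in every pool. The part of these lists in the results was not tested. From the steps between low values, depth was estimated at 9800000 to 10700000 reads in GC pools and 10000000 to 15900000 reads in naive pools, an approximation because 66.2 to 71.8% of low values fell near whole reads.

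The stretches 250 bases before the start of 3 factors with a single annotated RefSeq start are shown, as Eif4a1 and Eif4a2 encode paralogous helicases that moved in opposite directions and Eif1ax showed one of the largest increases. They lie on GRCm38.p6 at chr11:69672424-69672673 on the minus strand (Eif4a1), chr16:23107218-23107467 on the plus strand (Eif4a2) and chrX:159371928-159372177 on the plus strand (Eif1ax). Capitals mark the letters CACGTG, the core E-box bound by Myc and related factors, or CCGGAA, the core bound by Ets factors, which reads TTCCGG on the other strand.
Eif4a1: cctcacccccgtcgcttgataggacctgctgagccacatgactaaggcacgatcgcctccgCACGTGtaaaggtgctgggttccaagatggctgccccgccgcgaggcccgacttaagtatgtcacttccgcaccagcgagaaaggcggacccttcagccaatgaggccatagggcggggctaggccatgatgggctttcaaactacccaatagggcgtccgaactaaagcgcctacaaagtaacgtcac
Eif4a2: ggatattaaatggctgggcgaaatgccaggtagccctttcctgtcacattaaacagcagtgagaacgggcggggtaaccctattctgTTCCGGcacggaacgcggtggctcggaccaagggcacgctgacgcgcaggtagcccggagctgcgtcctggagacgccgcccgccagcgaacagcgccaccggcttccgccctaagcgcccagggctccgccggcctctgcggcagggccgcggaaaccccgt
Eif1ax: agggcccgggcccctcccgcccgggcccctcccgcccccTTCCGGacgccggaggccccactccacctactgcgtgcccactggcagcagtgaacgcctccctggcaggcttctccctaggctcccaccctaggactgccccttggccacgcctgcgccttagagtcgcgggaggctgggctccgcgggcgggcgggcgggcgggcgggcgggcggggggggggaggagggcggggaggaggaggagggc
Eif4a1 held 1 CACGTG, which begins 189 bases before the start. Eif4a2 and Eif1ax each held 1 TTCCGG, at 163 and 211 bases before the start, respectively. RefSeq windows of 300 bases, from 250 bases before to 50 bases after a start, were found for 44 of the 57 factors, and a gene was counted when any of its windows held the letters on either strand. CACGTG was found in 12 of the 44 factors (27.3%), against 12.4% of the 8029 expressed genes with a window and 8.09% of all 27025 genes with one. CCGGAA was found in 21 of the 44 factors (47.7%), against 33.4% of the expressed genes and 16.7% of all genes. CACGTG was held by 8 of the 33 matched factors that rose, 1 of 3 that fell and 3 of 6 that were not called, and CCGGAA by 16, 1 and 4 of them, respectively. These shares are a description of letters in the windows, and no binding was measured.

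Most initiation factors were higher in GC B cells. Of the 57 members with enough signal to be tested, 40 were called higher in GC B cells (70.2%), 5 were called lower (8.77%) and 12 were not called. Among all 12785 genes tested, 35.5% were called higher and 30.1% lower with limma at an adjusted p under 0.05, so that 65.6% were called in either direction. Without the Argonaute genes, 39 of 53 factors tested were higher, 5 were lower and 9 were not called. In 43 members every GC pool lay above every naive pool, in 5 every GC pool lay below, and in 9 the populations overlapped, whereas 37.8% of all genes tested lay wholly above and 32.8% wholly below (70.7% in either direction). The median log2 fold change of the members tested was 0.43, against 0.03 for all genes tested, whose middle values (25th to 75th percentile) ran from -0.49 to 0.59. Changes were mostly small. Only 3 members (5.26%) rose by more than 1 log2 unit, against 14.2% of all genes, and 1 fell by as much, against 11.2%. In bulk pools, a smaller share of cells that express a gene and less RNA per cell cannot be told apart.

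**Figure D1:**
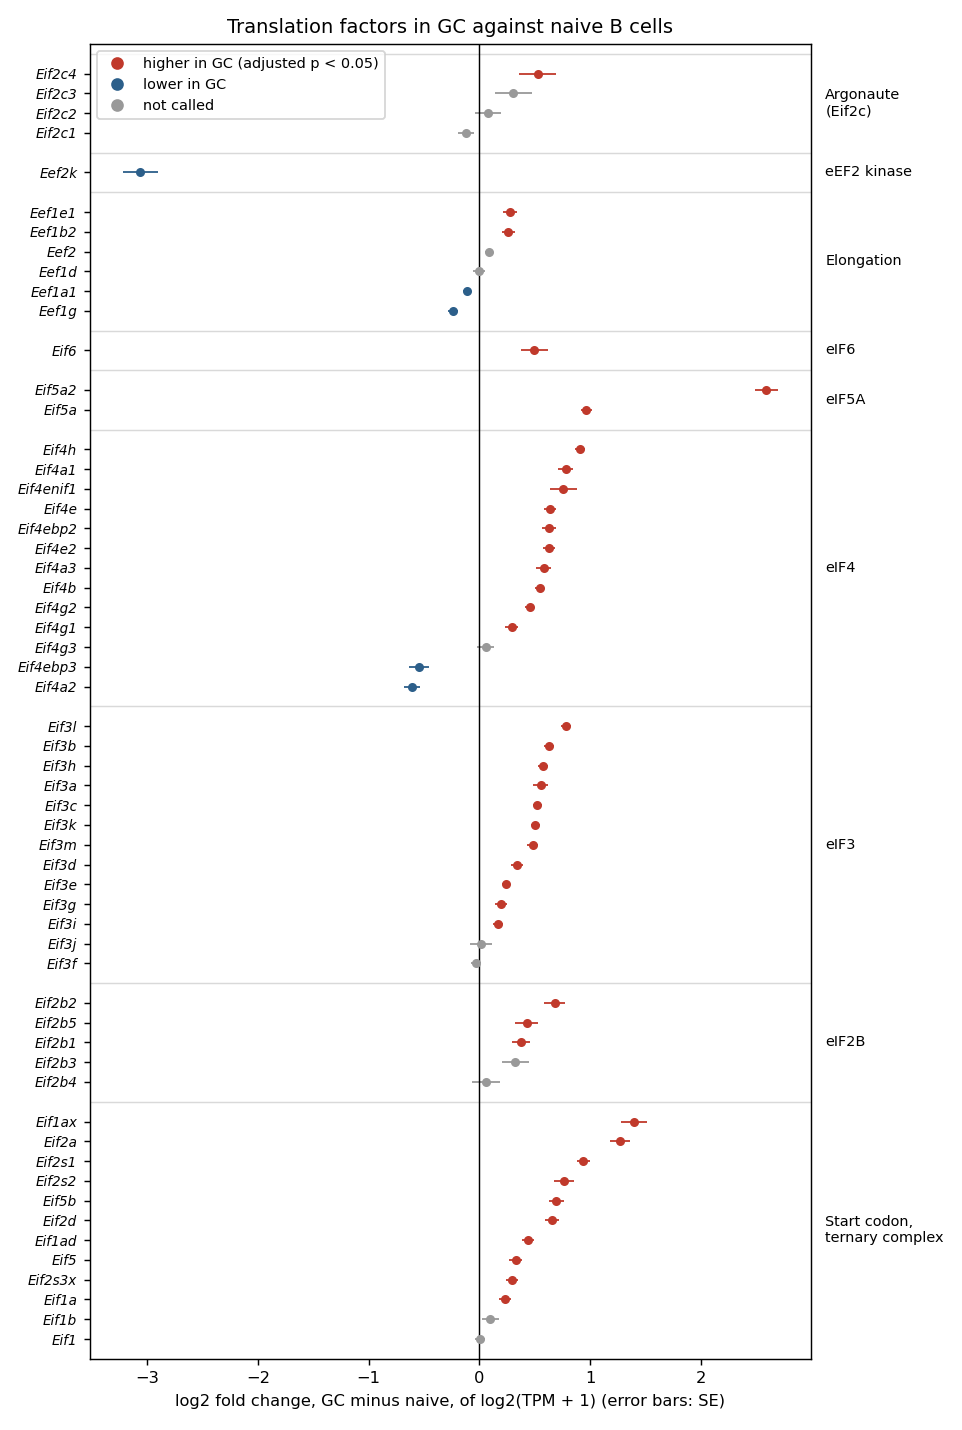
Log2 fold change (GC minus naive, of log2(TPM + 1), x axis) of each of the 57 members tested, grouped by role on the y axis. Points are limma estimates from 3 pools per population and bars are standard errors. Red points are called higher (40), blue points lower (5) and gray points not called (12). Eif5a2 stands farthest to the right at 2.59 and Eef2k farthest to the left at -3.06.

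The 4 members not tested were at or near 0. Eef1a2, the paralog of Eef1a1 in muscle and neurons, Eif2s3y, the Y-linked eIF2 subunit gene, and Eif4e1b were listed at 0 in all 6 pools, which come from mice labelled female. Eif4e3 was listed at 0 in the GC pools and at 0.04, 0.21 and 0.13 TPM in the naive pools.

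The start codon and ternary complex group, formed by symbol, held 12 tested members. Of these, 10 were higher in GC B cells (83.3%, against 35.5% of all genes tested) and none was lower (against 30.1%). Eif1ax (chrX:159372178-159389621, GRCm38.p6), which encodes eIF1A, a factor that helps the small subunit to scan for the start codon, measured 139, 125 and 139 TPM in the GC pools and 55.2, 41.7 and 55.2 TPM in the naive pools. Its log2 fold change was 1.40 (SE 0.12, adjusted p = 8.7e-05), and the lowest GC pool was above the highest naive pool. Eif2a (chr3:58525821-58557501) encodes eIF2A, a protein that can bring the initiator tRNA to the ribosome without eIF2. Eif2a measured 105, 103 and 95.8 TPM in GC pools against 44.6, 43.4 and 36.2 TPM in naive pools (log2 fold change 1.27, SE 0.09, adjusted p = 3.7e-05). These were the only members besides Eif5a2 that rose by more than 1 log2 unit.

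The 3 subunits of eIF2 rose by unequal amounts. Eif2s1 (chr12:78862072-78887010), the alpha subunit that is phosphorylated under stress, measured 59.45, 59.8 and 58.5 TPM in GC pools and 30.0, 29.3 and 32.0 TPM in naive pools, for a log2 fold change of 0.94 (SE 0.06, adjusted p = 1.6e-05). Eif2s2, the beta subunit, measured 75.2, 64.7 and 76.7 TPM against 46.1, 39.3 and 41.0 TPM (0.76, SE 0.09, adjusted p = 0.00044). A processed copy, Gm9892, is 99.5% identical to Eif2s2 over 996 aligned bases and took 12.1 to 31.7% of their summed TPM, so the level of Eif2s2 is less certain. Eif2s3x, the gamma subunit that holds the initiator tRNA, measured 140, 128 and 141 TPM against 112, 108 and 112 TPM (0.30, SE 0.05, adjusted p = 0.0027). Eif2s3x was the most abundant eIF2 subunit and Eif2s1 the least in both populations, with a ratio between them of 3.64 in naive cells and 2.30 in GC cells.

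Of the other members of this group, Eif5b (0.70), which joins the ribosomal subunits, Eif2d (0.66), Eif1ad (0.44), Eif5 (0.33), the GTPase activator of eIF2, and Eif1a (0.23) were called higher, where the values are log2 fold changes. Members such as Eif1ad were placed in the group by symbol, which does not show a role in start codon recognition. Eif5b shares 414 bases with the overlapping gene Rev1, which was at 50.7 to 52.1 TPM in GC pools and 10.4 to 12.5 TPM in naive pools, and how reads were divided between them was not tested. Eif1, which guards start codon choice, was among the most abundant members and overlapped between populations, with 889, 814 and 859 TPM in GC pools and 852, 828 and 871 TPM in naive pools (0.00, SE 0.05, adjusted p = 0.94). With a correction for GC content and length, Eif1 was called lower (-0.15, adjusted p = 0.031, against 0.031 to 0.997 over its alternatives). Genes with a near-identical stretch, Emd and Gm10157 the main ones, made up to 23.8% of the summed TPM, counted over each whole gene. Emd is a separate gene that aligned over 662 bases, at 128 to 130 TPM in GC pools and 84.1 to 94.2 TPM in naive pools. How reads were divided between these genes and Eif1 was not tested. Its paralog Eif1b measured 93.4, 96.1 and 98.7 TPM against 100, 81.8 and 87.7 TPM and overlapped between populations (0.10, adjusted p = 0.31), and it was called higher without naive pool 1 (0.18). Eif1 made up 89.9% of the pair in GC pools and 90.5% in naive pools (exact permutation test, p = 0.3).

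Of the 5 subunits of eIF2B, the exchange factor of eIF2, 3 were called higher (60%) and none lower. The shares of all genes tested were 35.5% and 30.1%, respectively. Eif2b2 was the most abundant subunit, with 117, 133 and 111 TPM in GC pools and 80.4, 77.4 and 66.5 TPM in naive pools (log2 fold change 0.68, SE 0.10, adjusted p = 0.00094). Eif2b3 was the least abundant, with 17.2, 18.2 and 15.5 TPM against 15.03, 13.96 and 11.2 TPM. Its pools did not overlap, and the difference of 0.33 missed the threshold (SE 0.12, adjusted p = 0.057), whereas it was called without naive pool 1 (0.41). Eif2b5 (0.43), the catalytic subunit, and Eif2b1 (0.37) rose, and Eif2b4 was not called (0.06, adjusted p = 0.70). Summed over the complex, eIF2B transcripts were at 266 ± 15.8 TPM (SD, n = 3) in GC pools and 195 ± 3.53 TPM in naive pools.

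eIF3 is the largest initiation factor. Of its 13 subunit genes, 11 were higher in GC B cells (84.6%, against 35.5% of all genes tested) and none was lower (against 30.1%). The summed level was 2855, 2848 and 2868 TPM in GC pools and 2183, 2125 and 2197 TPM in naive pools, a rise of 31.7% with no overlap. An exact permutation test on 3 against 3 pools gave p = 0.1, the smallest it can give. The log2 fold changes of the subunits had a median of 0.49 without Eif3j and a range from -0.03 (Eif3f) to 0.78 (Eif3l). Eif3l, a peripheral subunit, measured 174, 180 and 182 TPM against 108, 103 and 99.8 TPM (SE 0.05, adjusted p = 1.7e-05). Eif3b (0.63), Eif3h (0.57), Eif3a (0.55) and Eif3c (0.52) also rose, and of these Eif3a, Eif3b and Eif3c form the core of the complex. Eif3g (0.20) and Eif3i (0.17) rose the least among those called. Neither was called on the FPKM scale (0.15 and 0.12), with median-of-ratios scaling (0.16 and 0.13), with quantile normalization (0.07 and 0.06) or with a correction for GC content and length (0.12 and 0.02), and the correction also ended the call of Eif3e (0.07). Eif3g was not called without GC pool 1 (0.17), nor Eif3i without GC pool 2 (0.15), GC pool 3 (0.14), naive pool 1 (0.16) or naive pool 2 (0.16). Eif3f overlapped between populations, with 252 to 274 TPM in GC pools and 261 to 272 TPM in naive pools (adjusted p = 0.60).

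Levels differed between eIF3 subunits within each population. Eif3h was the highest, with 489, 478 and 455 TPM in GC pools and 319.5, 307 and 327 TPM in naive pools (0.57, SE 0.04, adjusted p = 5.8e-05). Eif3j, a loosely bound subunit, was the lowest, with 9.95, 10.8 and 10.4 TPM against 10.9, 10.7 and 9.22 TPM, and its pools overlapped (0.01, SE 0.10, adjusted p = 0.91). A near-identical gene, Gm9781 (99.4% over 2377 bases), was at 36.4 to 42.9 TPM in GC pools and 24.99 to 28.3 TPM in naive pools, and Eif3j also overlaps Spg11, so that the level of Eif3j is uncertain. Gm9781 carries no Eif symbol in the annotation used and was not a member.

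**Figure D2:**
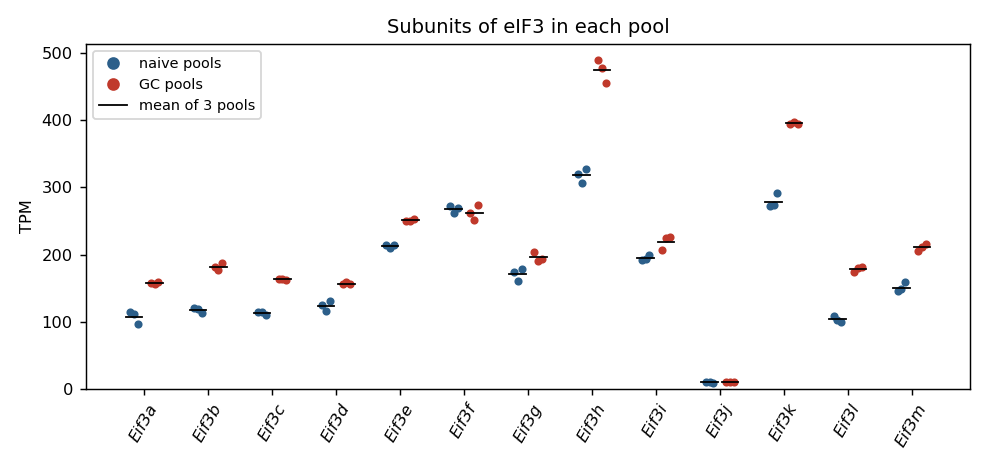
Level in TPM (y axis) of the 13 eIF3 subunit genes (x axis) in each naive pool (blue) and GC pool (red), with a line at the mean of 3 pools. The GC pools lie above the naive pools for 11 of the 13 subunits, as they do for 37.8% of all genes tested. The populations overlap for Eif3f and Eif3j, the latter with 9.22 to 10.9 TPM, a level made uncertain by the near-identical gene Gm9781.

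The eIF4 group, which handles the cap, gave 10 members higher and 2 lower among 13 tested. These shares were 76.9% and 15.4%, against 35.5% and 30.1% of all genes tested. The rises included Eif4h and Eif4b, which stimulate the eIF4A helicase. Eif4h (chr5:134619872-134639409) measured 259, 276 and 262 TPM in GC pools and 140, 144.5 and 139 TPM in naive pools, for a log2 fold change of 0.91 (SE 0.04, adjusted p = 6.0e-06), and Eif4b rose by 0.55. Eif4enif1, which encodes a transporter that moves eIF4E into the nucleus, measured 100, 106 and 104 TPM against 62.1, 71.2 and 50.75 TPM (0.76, SE 0.12, adjusted p = 0.0015). No GC pool overlapped a naive pool for any of these genes.

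The cap-binding proteins rose by similar amounts. Eif4e, which binds the cap, measured 46.9, 45.0 and 47.7 TPM in GC pools and 29.7, 30.1 and 28.8 TPM in naive pools (0.64, SE 0.05, adjusted p = 8.6e-05). Eif4e2, a paralog linked to repression of capped mRNAs, measured 107, 103 and 98.1 TPM against 67.8, 66.4 and 63.2 TPM (0.63, SE 0.05, adjusted p = 8.4e-05). Eif4e made up 31.3 ± 1.29% (SD, n = 3) of the family in GC pools and 31.0 ± 0.43% in naive pools (exact permutation test, p = 0.8), and was the least abundant of the 6 genes Eif4e, Eif4a1, Eif4a2, Eif4g1, Eif4g2 and Eif4g3. Of the binding proteins that block eIF4E, Eif4ebp2 rose by 0.63 (adjusted p = 0.00017), whereas Eif4ebp3 fell. Eif4ebp3 measured 10.7, 10.8 and 12.4 TPM in GC pools and 17.0, 16.04 and 17.9 TPM in naive pools (-0.55, SE 0.09, adjusted p = 0.0020). It overlaps Ankhd1 over 504 bases, and Ankhd1 took 80.9 to 87.0% of the summed TPM of the pair, and how reads were divided between them was not tested.

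The eIF4G scaffolds rose less. Eif4g1, the main scaffold, measured 202, 208 and 215 TPM in GC pools and 174, 179 and 157 TPM in naive pools (0.29, SE 0.06, adjusted p = 0.0055). Eif4g2, a related scaffold that lacks the region binding eIF4E and is not part of eIF4F, was the most abundant of these 6 genes in GC cells, with 564, 571 and 579 TPM against 437, 407 and 407 TPM (0.45, SE 0.04, adjusted p = 0.00013). Eif4g3 overlapped between populations, with 70.9, 74.4 and 69.5 TPM against 72.9, 72.4 and 61.5 TPM (0.06, SE 0.08, adjusted p = 0.55). The share of Eif4g1 in the family was 24.5% in GC pools and 25.9% in naive pools, a difference of -1.45 percentage points (exact permutation test, p = 0.1, adjusted p = 0.17 over 5 families). Eif4a3, a helicase of the exon junction complex, rose by 0.58 (adjusted p = 0.00046).

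The paralogous helicases Eif4a1 and Eif4a2 moved in opposite directions. Eif4a1 (ENSMUSG00000059796, chr11:69666936-69672423) measured 568, 509 and 526 TPM in GC pools and 332, 292 and 308 TPM in naive pools (0.78, SE 0.06, adjusted p = 7.6e-05). Eif4a2 (ENSMUSG00000022884, chr16:23107468-23114132) measured 483, 456 and 512 TPM in GC pools and 711, 808 and 696 TPM in naive pools (-0.61, SE 0.07, adjusted p = 0.00041). Every GC pool lay above every naive pool for the first gene and below for the other. Eif4a2 was the most abundant of the 6 genes in naive cells. The share of Eif4a1 in the pair was therefore 54.0, 52.8 and 50.7% in GC pools and 31.9, 26.5 and 30.7% in naive pools, a difference of 22.8 percentage points. The exact permutation test gave p = 0.1, the smallest possible with 3 against 3 pools, and 0.17 after adjustment over 5 families. A pseudogene, Eif4a-ps4, is 99.9% identical to Eif4a1 over 1218 bases and was at 200 to 214 TPM in GC pools and 128 to 139 TPM in naive pools. With its TPM added to Eif4a1, the share was 60.5% and 37.6%, respectively, so the difference between populations was as large (23.0 percentage points).

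**Figure D3:**
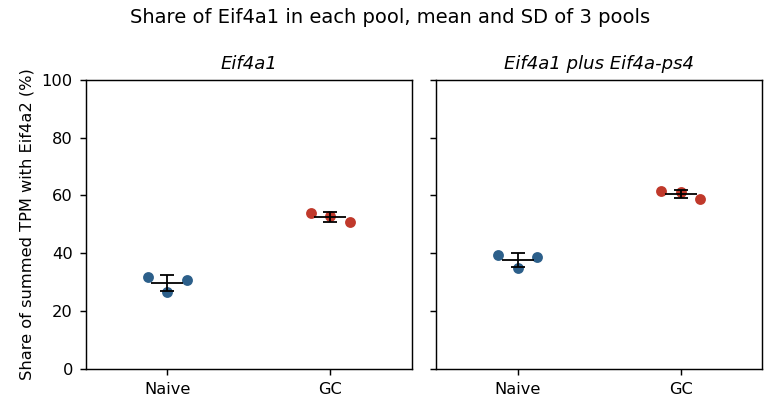
Share of Eif4a1 in the summed TPM with Eif4a2 (y axis, percent) in each pool, for Eif4a1 alone (left) and with the near-identical pseudogene Eif4a-ps4 added to it (right). Points are pools, and bars are the mean and SD of 3 pools. GC pools lie at 50.7 to 54.0% and naive pools at 26.5 to 31.9% on the left, without overlap.

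Both genes of eIF5A, which relieves ribosomes stalled on difficult sequences such as proline runs, rose in GC B cells. Eif5a2 (ENSMUSG00000050192, chr3:28781032-28798846) showed the largest increase of any member, with 23.9, 24.3 and 24.3 TPM in GC pools and 2.89, 3.72 and 2.93 TPM in naive pools. The ratio of means was 7.58, and the log2 fold change was 2.59 (SE 0.11, adjusted p = 3.1e-06). Eif5a (chr11:69916712-69921958), the main form, measured 922, 943 and 867 TPM in GC pools and 447, 466 and 486 TPM in naive pools, a ratio of 1.95 (0.96, SE 0.05, adjusted p = 8.9e-06). Neither gene overlapped between populations. Eif5a was by far the more abundant form in every pool, with 97.4 ± 0.12% of the pair in GC pools and 99.3 ± 0.10% in naive pools (exact permutation test, p = 0.1, adjusted p = 0.17 over 5 families). Eif6, which keeps the large ribosomal subunit from joining early, rose by 0.50 (SE 0.12, adjusted p = 0.010), with 127 to 142 TPM against 82.2 to 113 TPM.

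**Figure D4:**
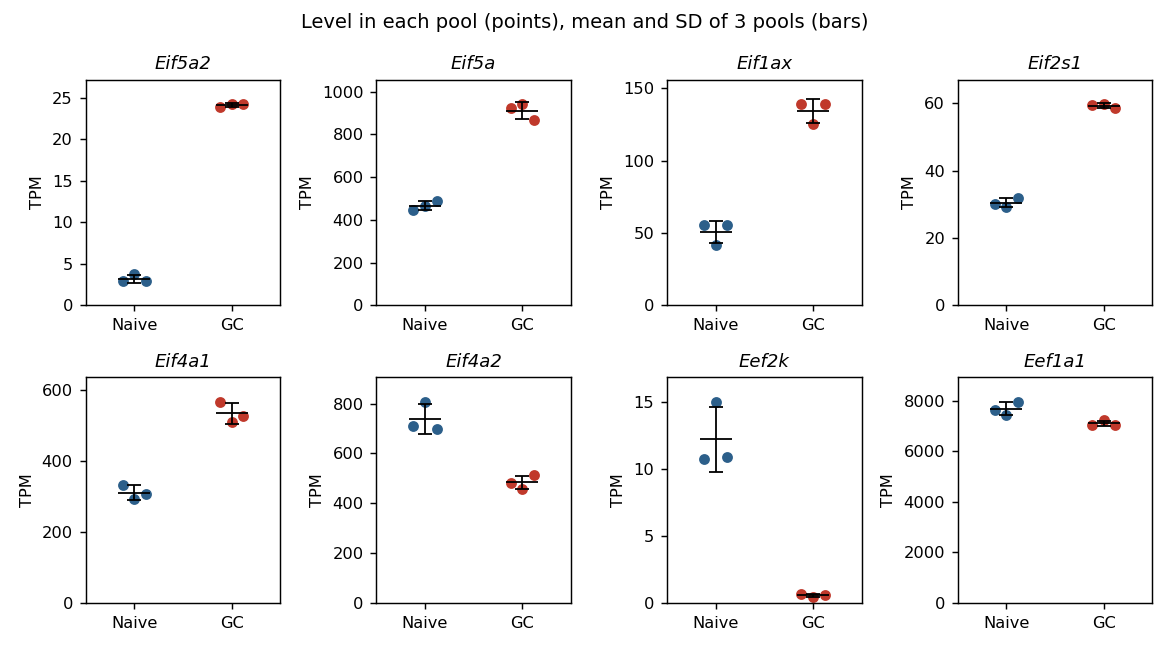
Level in TPM (y axis, from 0) of 8 members in each naive pool (blue) and GC pool (red). Bars are the mean and SD of 3 pools. The populations do not overlap for any of the 8 genes, and for Eef1a1 the gap is small and its direction changed under quantile normalization (0.04 on the log2 scale).

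Of 6 tested members grouped by symbol as elongation factors, 2 were higher (33.3%), 2 lower (33.3%) and 2 not called. Their median log2 fold change was 0.04. The shares called higher and lower lie near those of all genes tested (35.5% and 30.1%), and the difference from initiation factors was not tested. The 2 higher were Eef1b2 and Eef1e1, and Eef1e1 belongs to the complex of aminoacyl tRNA synthetases. Eef1a1 (ENSMUSG00000037742, chr9:78478453-78481724), which delivers aminoacyl tRNAs, was the most abundant member, with 7035, 7229 and 7048 TPM in GC pools and 7632, 7442 and 7963 TPM in naive pools (-0.11, SE 0.04, adjusted p = 0.045). This call was lost with the direction kept under 11 of 16 alternatives (adjusted p = 0.052 to 0.27), held under 4 and turned in sign under quantile normalization (0.04), with adjusted p from 0.0010 to 0.50 over all of them. Eef1g, a structural subunit of the exchange complex eEF1B, fell, with 590, 612 and 598 TPM in GC pools and 709, 677 and 740 TPM in naive pools (-0.24, SE 0.04, adjusted p = 0.0031). Eef1b2, which carries the exchange activity, measured 1287, 1363 and 1299 TPM against 1066, 1049 and 1181 TPM (0.26, SE 0.06, adjusted p = 0.0060). The remaining eEF1B gene, Eef1d, overlapped between populations (0.00, adjusted p = 0.98).

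Eef2, the translocase, was the next most abundant member, with 1890, 1966 and 1945 TPM in GC pools and 1817, 1855 and 1791 TPM in naive pools. Its pools did not overlap, and the difference missed the threshold (0.09, SE 0.03, adjusted p = 0.066), whereas it was called higher with quantile normalization (0.25) or with a correction for GC content and length (0.19). Eef1e1, which belongs to the complex of aminoacyl tRNA synthetases, was the least abundant eEF1 gene detected, with 40.4, 40.3 and 36.6 TPM against 32.7, 32.4 and 31.1 TPM (0.28, SE 0.06, adjusted p = 0.0081). With the same correction, the increases of Eef1b2 (0.08) and Eef1e1 (0.04) were no longer called. Summed elongation factors were at 11306 ± 192 TPM (SD, n = 3) in GC pools and 11653 ± 350 TPM in naive pools, and the populations overlapped (exact permutation test, p = 0.2).

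Eef2k (ENSMUSG00000035064, chr7:120842642-120907219), the kinase that inhibits eEF2, showed the largest decrease. It measured 0.68, 0.46 and 0.59 TPM in GC pools and 10.7, 15.1 and 10.9 TPM in naive pools, so that the naive mean was 21.4 times the GC mean. The log2 fold change was -3.06 (SE 0.16, adjusted p = 9.1e-06), a scale that understates the change of a low gene, and it was -4.39 with a pseudocount of 0.01 in place of 1. Naive pool 2 was above the other two naive pools, and without it the value was -2.91. The epithelial, myeloid, plasma cell and stromal sums, which were lower in GC pools as given above, moved in the same direction as this decrease and those of Eif4a2, Eif4ebp3 and Eef1g. So did the sum of 5 B cell genes, with 3884 to 3931 TPM in GC pools and 5783 to 5913 TPM in naive pools. Of these genes, Ms4a1 alone was higher in GC pools. The stromal sum was nearly all Pecam1. The plasma cell sum was carried by Xbp1 and Irf4, and of its other genes Prdm1 was higher and Sdc1 lower in GC pools. The part of these sums in the results was not tested.

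Together, the 61 members summed to 20267, 20539 and 20293 TPM in GC pools and 18550, 18230 and 18881 TPM in naive pools, a rise of 9.77% (exact permutation test, p = 0.1, the smallest possible). Eef1a1 alone dominated this sum. Without it, the members were at 13262 ± 42.3 TPM (SD, n = 3) and 10875 ± 75.3 TPM, a rise of 22.0%. On the FPKM scale as deposited, the full sums overlapped between populations (p = 0.2, exact permutation test). The Eif members other than the Argonaute genes gave 37 higher (80.4%) and 2 lower (4.35%) of 46 tested, with a median of 0.50. Among all genes tested, 35.5% were higher and 30.1% lower. Of the Argonaute genes, Eif2c4 was called higher (0.53, SE 0.17, adjusted p = 0.030) at 4.16 to 5.71 TPM against 2.41 to 3.56 TPM. This call was lost without GC pool 2 (0.52), GC pool 3 (0.43) or naive pool 3 (0.40). It was also lost without the filter and with the replicate block, alone or with the correction for GC content and length. Eif2c1, Eif2c2 and Eif2c3 were not called. Eif2c1 was called lower on the FPKM scale (-0.17), with quantile normalization (-0.18) and with the correction (-0.17).

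Genes that act on these factors were followed in a fixed list of 46 partners, of which 45 were tested. Of these, 18 were higher, 9 lower and 18 not called, and the median log2 fold change was 0.16. The higher share (40.0%) lies near the background of 35.5%, and the lower share (20%) is below the background of 30.1%. Gspt2, a release factor gene, was not tested, with 0.26 to 0.49 TPM in GC pools and 0 in naive pools. Pdcd4, an inhibitor that binds the eIF4A helicase, showed the largest decrease, with 8.56, 11.9 and 6.44 TPM in GC pools and 101, 99.7 and 94.98 TPM in naive pools (-3.36, SE 0.19, adjusted p = 1.3e-05). Mknk1, a kinase of eIF4E, measured 29.8, 25.4 and 26.9 TPM against 48.5, 52.8 and 49.96 TPM (-0.86, SE 0.08, adjusted p = 0.00010). For both genes every GC pool was below every naive pool. Eif4ebp1, the best known inhibitor of eIF4E, overlapped between populations, with 29.1, 21.8 and 24.9 TPM against 22.3, 22.6 and 29.0 TPM (0.03, SE 0.14, adjusted p = 0.85).

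The enzymes that make hypusine on eIF5A and diphthamide on eEF2 were lower in 4 of 6 cases (66.7%, against 30.1% of all genes tested) and higher in none. Dhps, which carries out the first step of hypusine synthesis, measured 51.0, 50.5 and 46.3 TPM in GC pools and 74.2, 72.8 and 71.7 TPM in naive pools (-0.56, SE 0.06, adjusted p = 0.00019), the opposite direction to its substrate genes Eif5a and Eif5a2. Dph1, of the diphthamide pathway, measured 13.4, 11.3 and 12.0 TPM against 19.8, 23.3 and 18.9 TPM (-0.70, SE 0.11, adjusted p = 0.0014). Dph5 (-0.50) and Dph2 (-0.36) also fell, whereas Dohh (0.04) and Dph3 (-0.16) were not called.

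Among partners that rose, Bzw2, which encodes a mimic of eIF5, measured 157, 168 and 168 TPM in GC pools and 24.5, 27.2 and 25.5 TPM in naive pools (2.63, SE 0.06, adjusted p = 3.1e-07). Etf1, the factor that reads stop codons, measured 101, 99.5 and 91.1 TPM against 44.5, 45.8 and 43.2 TPM (1.11, SE 0.06, adjusted p = 9.5e-06). Pabpc4, a poly(A)-binding protein, measured 194, 199 and 206 TPM against 98.5, 92.6 and 96.3 TPM (1.05, SE 0.05, adjusted p = 4.1e-06). None of the 3 genes overlapped between populations.

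The kinases that phosphorylate Eif2s1 did not move as a group. Eif2ak3 (PERK), which responds to stress in the endoplasmic reticulum, measured 90.04, 101 and 92.0 TPM in GC pools and 48.2, 44.7 and 43.3 TPM in naive pools (1.04, SE 0.07, adjusted p = 2.6e-05). Eif2ak1, the kinase that senses heme, measured 31.5, 33.7 and 35.2 TPM against 28.7, 27.1 and 26.65 TPM (0.27, SE 0.07, adjusted p = 0.011). The kinase of double-stranded RNA, Eif2ak2, measured 10.4, 13.9 and 12.0 TPM against 11.5, 12.4 and 9.36 TPM (0.12, SE 0.14, adjusted p = 0.50). Eif2ak4, which senses uncharged tRNA, measured 15.03, 14.6 and 14.2 TPM against 15.4, 16.2 and 13.3 TPM (-0.03, SE 0.09, adjusted p = 0.80). The pools of Eif2ak2 and Eif2ak4 overlapped. Of the phosphatase subunits that reverse this mark, Ppp1r15b rose by 0.37 and Ppp1r15a was not called (-0.25, adjusted p = 0.18). Among 8 mitochondrial factors, 3 were higher (37.5%), 2 lower (25%) and 3 not called. These shares lie near those of all genes tested (35.5% and 30.1%). Tsfm (0.80), Tufm (0.72) and Gfm1 (0.64) of elongation rose, and Gfm2 (-0.43) and Mtif3 (-0.34) fell.

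**Figure D5:**
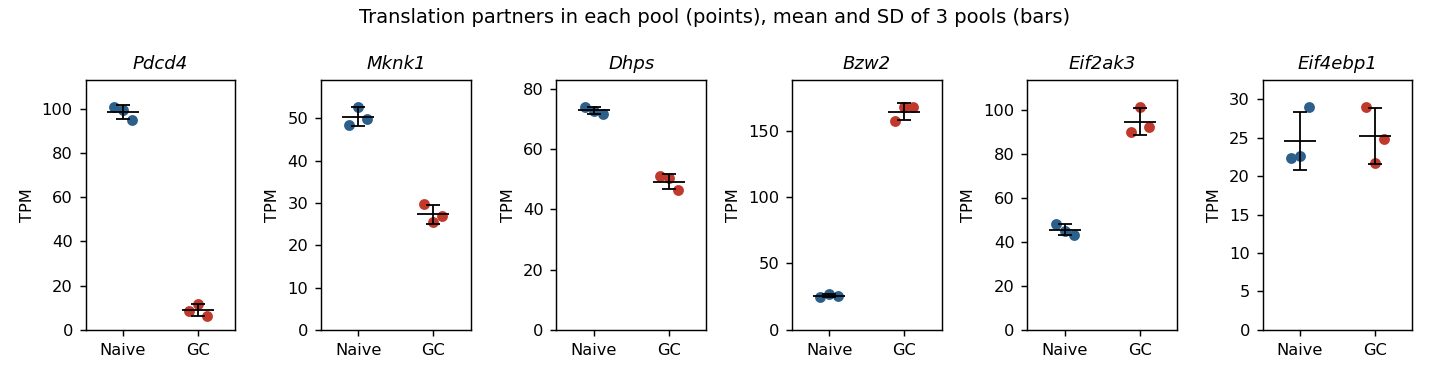
Level in TPM (y axis, from 0) of 6 partners in each naive pool (blue) and GC pool (red), with the mean and SD of 3 pools. Pdcd4, Mknk1 and Dhps are lower in every GC pool, Bzw2 and Eif2ak3 are higher in every GC pool, and the pools of Eif4ebp1 overlap.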

How the data were processed

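RNA was sequenced from 3 pools of GC and 3 pools of naive B cells, each of 5 mice; p-values measure the spread between pools. The authors demultiplexed reads with Casava v1.8, trimmed adapters with cutadapt v1.9 and quantified reads with RSEM v1.2.25 on the mouse transcriptome (NCBIm38 v75), with a mean fragment length of 180 (SD 50), and deposited FPKM per gene and pool with 2 decimals. RSEM divides reads among similar transcripts. FPKM was rescaled here to TPM in each pool. Symbols came from the mouse GENCODE annotation of NCBIM37 and matched 33398 of 39179 identifiers; coordinates and promoter windows came from RefSeq GRCm38.p6.

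Genes that reached 1 TPM in 3 or more pools were fitted with limma 3.58.1 (R 4.3.3) on log2(TPM + 1), with population as the only term, and p-values were adjusted by Benjamini-Hochberg over the 12785 genes tested. Genes were called at an adjusted p under 0.05. A fold change on this scale understates the change of low genes. Sums and shares were compared by exact two-sided permutation tests over pools, which cannot give less than 0.1. Copies were found with blastn 2.17.0 (at least 90% identity over 300 bases). The fitting procedure was tested on simulated data.

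Values in every pool are given for the 10 members with the largest increase and the 10 with the largest decrease (5 were called lower). They are also given for the 6 most abundant members, paralog families, and the most and least abundant gene detected of each complex. The same holds for the 4 partners with the largest change in each direction, Eif4ebp1 and the Eif2ak kinases. Eif4e3, Gspt2, Eif3f, Eif6 and Eif2c4 are given as ranges or values chosen after they were seen. Members and lists were chosen with earlier results of these data known. Alternatives changed the pseudocount, the filter, the scaling, a correction for GC content and length, the replicate block and each pool left out in turn. After seeing the data, 2 were added: the members without the Argonaute genes, and Eif4a1 with its pseudogene. Some marker genes are not reported here.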

Additional observations from a re-analysis of the deposited data

How the results depend on the processing

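The count of members called higher ran from 34 to 41 over 17 alternatives, and that of members called lower from 4 to 7. The 34 came with the correction for GC content and length and the replicate block, where 3929 of all 11031 genes tested were higher. The 41 came without naive pool 1, where 4258 of 12785 genes were higher. The 7 came with the correction alone, where 3960 of 11031 genes were lower. The median log2 fold change of the members stayed positive and was 0.44 with a pseudocount of 0.01, 0.40 without a filter, 0.37 on the FPKM scale, 0.39 with median-of-ratios scaling, 0.35 with quantile normalization, 0.31 with the correction for GC content and length (also with the replicate block), and 0.44 without the Argonaute genes. Leaving out each pool in turn gave 0.40 to 0.44. The median of all genes tested moved as well. It was 0.031 in the main setting, -0.017 on the FPKM scale, -0.0069 with median-of-ratios scaling, -0.056 with quantile normalization and -0.023 with the correction. The cause of these shifts was not tested. Scaling moved the share of all calls that were higher from 54.1% to as little as 47.8% (quantile normalization). The difference in the Eif4e share ran from -0.45 to 0.67 percentage points when a pool was left out and turned in sign without GC pool 3.

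Direction turned for 7 named genes, of which Eef1a1 alone had been called. Eef1a1 was at 0.043 with quantile normalization. Eif1 was at -0.048 on the FPKM scale, -0.036 with median-of-ratios scaling, -0.11 with quantile normalization and -0.15 with the correction, with and without the block, and ran from -0.025 to 0.039 with a pool left out. Eif1b was at -0.042 with quantile normalization and -0.10 with the correction, with and without the block. Eif3j was at -0.032, -0.023, -0.044 and -0.087 under these 4 settings in the order given for Eif1, and ran from -0.056 to 0.055 with a pool left out. Eif4ebp1 was at -0.016, -0.0051, -0.022 and -0.020 in the same order, and from -0.069 to 0.15. Eif4g3 was at -0.072 with quantile normalization and from -0.021 to 0.10 with a pool left out. Eif2ak4 ran from -0.11 to 0.027 with a pool left out.

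The replicate numbers could not be shown to pair the pools. Deviations of same-numbered pools correlated at only 0.08, 0.02 and 0.05, and those of the other pairs at -0.07 to 0.03. Each GC pool correlated best with the naive pool of its own number, whereas naive pool 2 correlated best with GC pool 3. Whether same-numbered pools share mice was not tested. With the replicate block, 40 members were called higher and 4 lower, and 43 of the 45 calls were kept. Of all 12785 genes tested, 4342 were then higher and 3618 lower. Eif2b3 was then called higher, and Eef1a1 and the Argonaute gene Eif2c4 were no longer called. With the correction and the replicate block, 34 members were higher and 6 lower, against 3929 and 3864 of all 11031 genes tested. For the share of Eif4a1, an exact sign-flip test over the numbered pairs gave 0.25, the smallest possible. Depth is known only approximately, so no counting interval was given, and low genes such as Eef2k in GC pools are the least certain.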
